A study of Mus musculus with 11 samples.

Results

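The 46 genes described here encode the machinery of mitosis: the kinases that drive it, the spindle checkpoint, the kinesins and kinetochore proteins that move chromosomes, the cytokinesis apparatus and the condensin complex that compacts chromatin. They were taken by name from a gene table of 54686 entries, but the list was made with earlier results of these data known. Each of the 46 symbols matched 1 Ensembl gene in that table, and all 46 had at least 1 FPKM (fragments per kilobase of gene, scaled to the mapped fragments) in at least 2 libraries, the condition for entering the test, which 12626 entries met.

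The 11 libraries came from B16-OVA, an ovalbumin-carrying melanoma line from mice of the strain C57BL/6J, so the data describe a single cell line in culture. Cells received either a control siRNA or a siRNA pool against YAP and TAZ, and 48 h later they were either left unheated or kept at 45 °C for 1 h and returned to 37 °C for 6 h. There were 3 unheated and 2 heated control siRNA libraries, and 3 unheated and 3 heated YAP/TAZ siRNA libraries; the heated control replicates are numbered 1 and 3, and a replicate 2 is not analysed here. The labels do not say whether replicates were separate cultures, so the p-values measure the spread between these libraries, which may be technical.

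Mitotic genes are transcribed in a wave that peaks in G2 and M phase. Cyclin B with CDK1 starts mitosis, the Aurora and Polo-like kinases build the spindle, and the checkpoint holds the anaphase-promoting complex inactive until every kinetochore is attached. YAP and TAZ, which the Hippo kinases hold in check, work with TEAD factors at DNA and are known for promoting proliferation, and in melanoma lines they are studied as drivers of growth.

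Both targets of the siRNA pool were low where they should be: Yap1 was at 2.26 to 3.02 FPKM in the 6 YAP/TAZ siRNA libraries and at 5.79 to 15.6 FPKM in the 5 control siRNA libraries, and Wwtr1 (TAZ) was at 1.40 to 1.83 against 5.37 to 8.47 FPKM. All 8 melanocyte markers examined were expressed, with sums of 6460.0 to 8430.0 FPKM a library. Of 32 markers of fibroblasts, macrophages, lymphocytes, endothelial cells and keratinocytes, 5 passed the filter. Their sums were low but moved with the groups. The 8 fibroblast markers summed to 2.87 to 3.16 FPKM in unheated control siRNA libraries, at most 1.52 in heated ones, and 1.44 to 1.63 and 1.02 to 1.06 under YAP/TAZ siRNA without and with heat, with Dcn at 0 throughout. Both fibroblast markers that were tested (Col1a2 and Pdgfrb, named after their values were seen) were called in the direction of most mitotic genes: lower with heat under control siRNA, lower with YAP/TAZ siRNA without heat, and higher for the interaction. The macrophage, lymphocyte and endothelial sums were highest in the heated control siRNA libraries. The 7 macrophage markers summed to 6.29 to 6.73 FPKM there, against 2.34 to 2.64 in unheated control siRNA libraries and 1.57 to 2.05 and 2.83 to 3.42 under YAP/TAZ siRNA, with Ptprc at 0. The 7 lymphocyte markers summed to 1.89 to 1.92 FPKM there and to at most 0.365 in every other library, with Cd3d, Cd8a and Ms4a1 at 0. Cd79a, the 1 that was tested, was at a log2 change of 1.22 with heat under control siRNA and -1.06 for the interaction. It passed the filter only through the heated control siRNA libraries, so these directions were fixed by the filter and are no separate result. The 5 endothelial markers summed to 1.28 to 1.52 FPKM there and to at most 0.293 elsewhere, with Cdh5 at 0, and the 5 keratinocyte markers to at most 0.0807 in any library. The part of these genes in the results was not tested. Low values moved in steps of 0.0228 to 0.0328 FPKM for 1 kb of transcript, and the least covered mitotic gene of a library still had 204 to 479 such steps.

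YAP/TAZ siRNA lowered nearly the whole mitotic set in unheated cells. Of the 46 genes, 44 fell, 1 rose (Pttg1) and 1 was not called (Smc4), with limma's moderated test at a Benjamini-Hochberg adjusted p under 0.05; 21.9% of all tested genes were called lower and 27.1% higher. The median log2 change was -0.59, against 0.02 over all tested genes. In 45 of 46 genes every unheated YAP/TAZ siRNA library lay below every unheated control siRNA library, which held for 26.3% of tested genes. In bulk RNA, fewer cells in mitosis and less of each mRNA per cell cannot be told apart. The calls depended little on processing: 42 to 45 genes were lower under the 18 alternatives, and 43 of the 45 calls held under all of them.

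Heat in control siRNA cells also lowered most of the set, but unevenly. The 2 heated control siRNA libraries stood apart, with 23173 and 23242 genes above 0 FPKM against 20000.0 to 21662 in the other 9; the part of this in the results was not tested. Without the filter 4117 genes were called higher with heat under control siRNA, against 1560.0 with it, and 28 of the mitotic genes were lower. In the filtered test 32 genes fell, 1 rose (Smc4) and 13 were not called, where 36.9% of tested genes were called lower, 12.4% higher and 49.2% in either direction. In 36 genes both heated libraries lay below all 3 unheated ones, which held for 50.6% of tested genes. The median log2 change was -0.39, against -0.16 over all tested genes. Changes ran from -1.37 for Kif20b to 0.31 for Smc4. How libraries are scaled bears on the count: 19 genes were called lower and 6 higher after median-of-ratios scaling, where the median was -0.19 for the set and 0.01 for all genes, and 24 lower and 2 higher after quantile normalization. The falls of Birc5, Cdca8, Bub3, Cdc20, Pttg1, Cenpa, Spc24, Kif11, Kif23, Anln, Ect2, Smc2 and Top2a were the ones not called after median-of-ratios scaling. This comparison and that of the siRNAs without heat share the 3 unheated control siRNA libraries.

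Heat in YAP/TAZ siRNA cells raised more mitotic genes than it lowered. There 18 genes rose, 5 fell (Ccnb1, Mad2l1, Espl1, Kif2c and Kif20b) and 23 were not called, where 18.6% of tested genes were called higher, 31.7% lower and 50.3% in either direction. The median log2 change was 0.12, against -0.09 over all tested genes. This direction depends on the scaling, since with 1 FPKM total for all libraries 6 genes were called higher and 14 lower and the median was -0.03, when that of all genes was -0.22. The rises that ended there were those of Ccnb2, Incenp, Bub1, Cdc20, Spc24, Kif23, Tpx2, Prc1, Nusap1, Racgap1, Top2a and Mki67. Relative to all genes the set's median stood 0.21 higher, and 0.12 to 0.24 higher under the alternatives. Of the 32 genes lower with heat under control siRNA, 9 rose with heat under YAP/TAZ siRNA, 5 fell and 18 were not called. The same split is not given here for all tested genes, so whether it is particular to the set is not known. The 2 heat comparisons share no library.

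The difference between these 2 heat responses, the interaction, went one way. Its unheated libraries are also those of the comparison of the siRNAs without heat, so the interaction is not independent of that result. It was higher (less loss or more gain with heat under YAP/TAZ siRNA) in 37 of 46 genes and lower in 0, where 24.6% of tested genes were called higher and 13.4% lower. Its median was 0.56 on the log2 scale, against 0.11 over all tested genes, and 30 to 38 genes were called higher under the alternatives, with 0 called lower in any of them. At an unadjusted p under 0.05, 0 of the 46 were lower either. Changes are on the log2(FPKM + 1) scale, which understates those of low genes; with a pseudocount of 0.1 the median was 0.59.

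After heat, mitotic genes were called in both directions with YAP/TAZ siRNA. The median mitotic gene was at 25.9 to 26.6 FPKM in unheated control siRNA libraries, at 19.2 and 19.6 FPKM in heated ones, at 16.6 to 17.6 FPKM in unheated YAP/TAZ siRNA libraries and at 18.9 to 19.3 FPKM in heated ones. With YAP/TAZ siRNA after heat 13 genes were higher, 14 lower and 19 not called, where 36.3% of tested genes were called higher and 17.9% lower. The median was -0.01, against 0.13 over all tested genes. The counts rest on single libraries and on scaling: 8 genes were higher without heated control replicate 1, 8 lower without heated control replicate 3, and 6 higher and 21 lower after median-of-ratios scaling, which ended the higher calls of Ccnb1, Plk1, Ndc80, Spc24, Kif2c, Kif4 and Mki67.

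**Figure D1:**
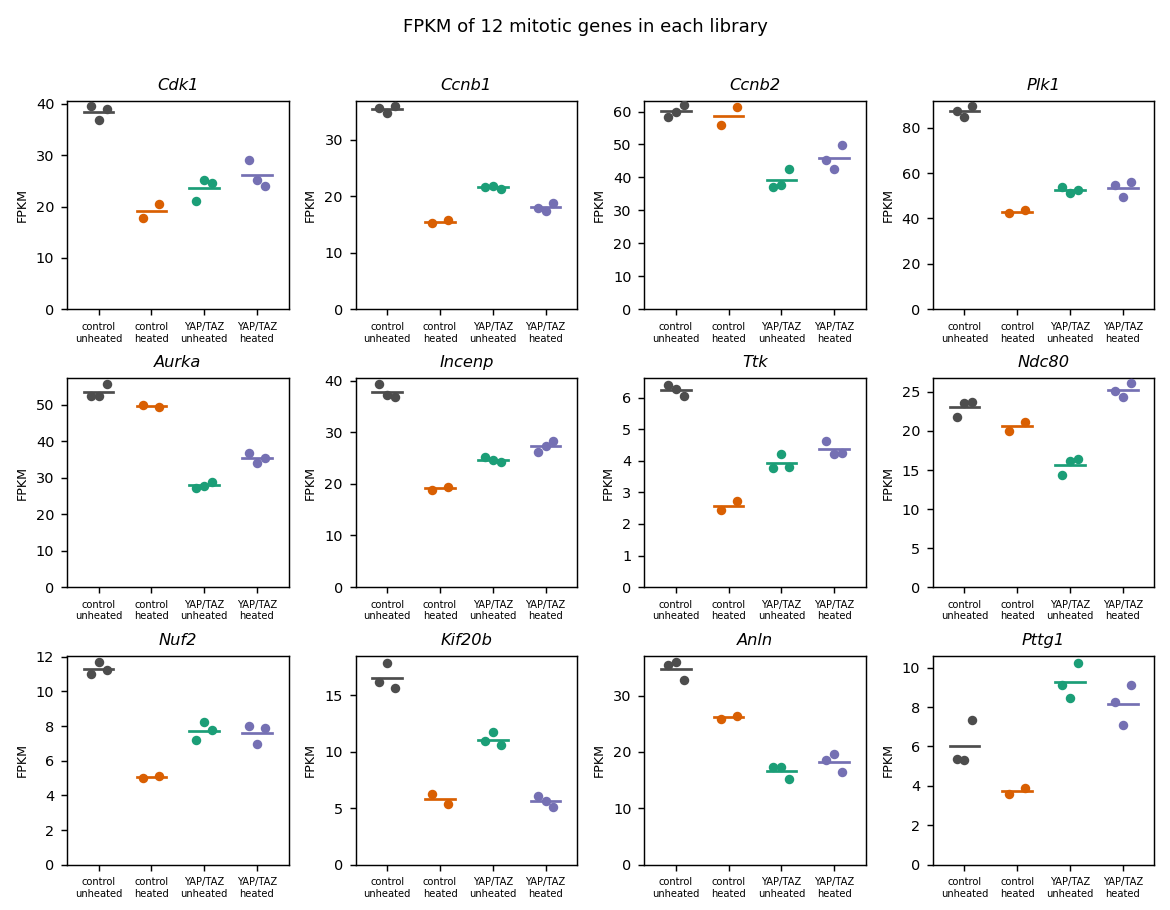
FPKM of 12 mitotic genes in each library (points) with the group mean (line), for unheated and heated cells under control siRNA (control) and YAP/TAZ siRNA. All but Pttg1 were lower under YAP/TAZ siRNA than under control siRNA without heat, Ccnb2 and Aurka stayed near their unheated level with heat under control siRNA, and Kif20b was near 5 to 6 FPKM after heat under either siRNA.

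**Figure D2:**
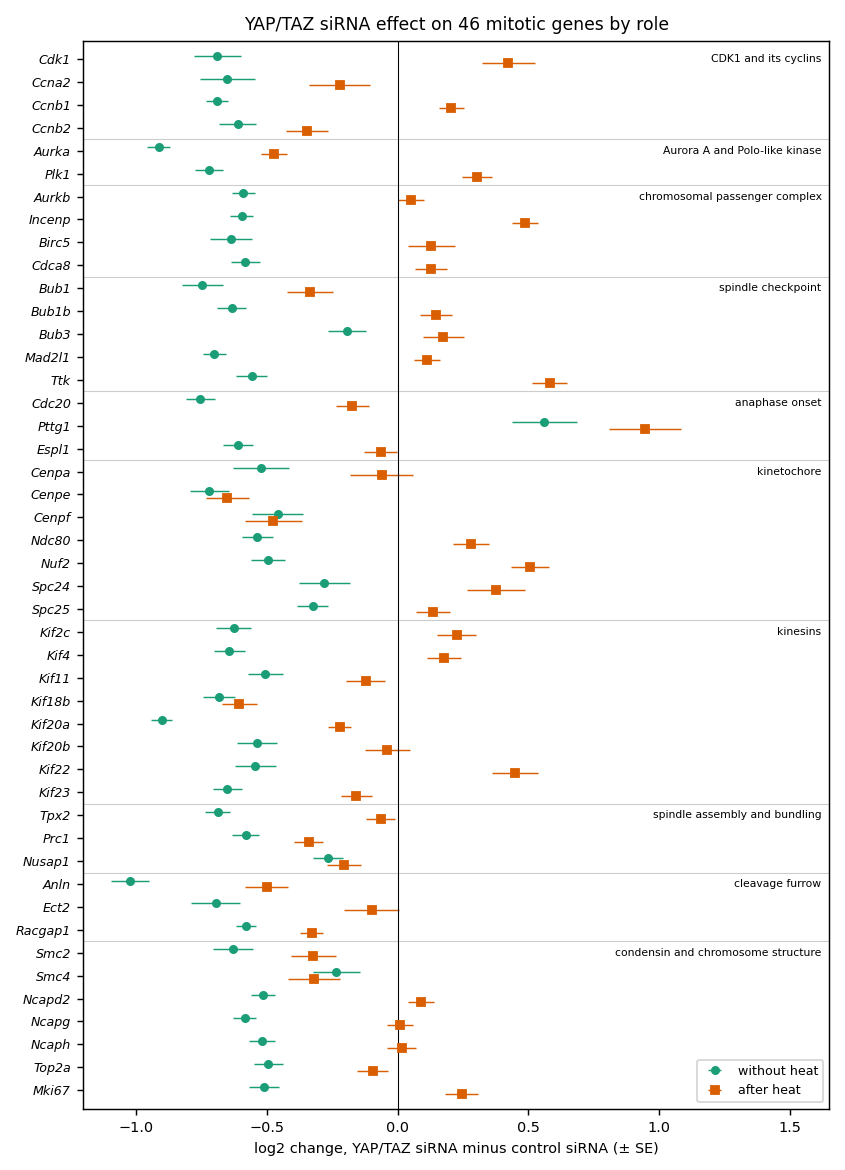
Log2 change with YAP/TAZ siRNA against control siRNA for the 46 genes by role, without heat (circles) and after heat (squares), with bars of 1 standard error. Without heat 45 of 46 values lie below 0; after heat 13 genes were called higher and 14 lower.

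A sequence feature shared by many of these genes lies in their promoters. The cell cycle homology region (CHR, letters TTTGAA, or TTTAAA in a variant) is bound by the DREAM and MuvB complexes that repress mitotic genes in quiescent cells and activate them in G2 and M phase, and CCAAT boxes nearby bind NF-Y. RefSeq promoters on GRCm38.p6 (250 bases before to 50 after the first listed start) were available for 39 of the 46 genes. TTTGAA or its reverse complement occurred in 30 of these 39 (76.9%), against 18.1% of 27025 genes in the same table and 11.5% of the 8451 of them that were tested here. CCAAT on either strand occurred in 29 (74.4%), against 37.9% and 39.3%, and TTTAAA, which reads the same on both strands, in 9 (23.1%), against 13.2% and 8.56%. The letters of 1 motif do not contain those of another, though neighbouring matches could share bases.

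The 120 bases before the first listed RefSeq start are shown for 5 genes that carry these motifs and whose levels are described below. They are also shown for Mad2l1 and Pttg1, which carry none in their 300 bases and went opposite ways with YAP/TAZ siRNA. These 2 windows may miss the promoters, so motifs there are not excluded. The Ensembl model of Pttg1 starts at 43426251, with the whole window inside the gene. That of Mad2l1 starts at 66535390, past the end of its window. Windows of Cdca8, Kif2c and Kif4 also lay inside their Ensembl models. Bases are 5′ to 3′ on the gene's strand, with CHR, its variant and CCAAT boxes, read on either strand, in capitals.
Cdk1, chr10:69352913-69353032 (minus strand): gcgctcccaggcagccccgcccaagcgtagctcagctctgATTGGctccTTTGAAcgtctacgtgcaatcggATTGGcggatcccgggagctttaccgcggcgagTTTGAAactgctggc
Ccnb1, chr13:100786487-100786606 (minus strand): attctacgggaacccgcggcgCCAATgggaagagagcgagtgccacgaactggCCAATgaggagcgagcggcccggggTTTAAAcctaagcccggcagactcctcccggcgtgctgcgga
Cdc20, chr4:118437344-118437463 (minus strand): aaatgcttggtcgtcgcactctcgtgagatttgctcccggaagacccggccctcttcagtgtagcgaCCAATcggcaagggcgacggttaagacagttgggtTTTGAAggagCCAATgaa
Kif22, chr7:127042421-127042540 (minus strand): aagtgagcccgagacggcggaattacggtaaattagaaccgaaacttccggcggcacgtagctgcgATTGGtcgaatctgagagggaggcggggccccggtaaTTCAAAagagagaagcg
Kif11, chr19:37376262-37376381 (plus strand): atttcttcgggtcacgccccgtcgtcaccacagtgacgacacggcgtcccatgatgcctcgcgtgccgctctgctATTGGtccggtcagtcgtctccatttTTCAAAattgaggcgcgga
Mad2l1, chr6:66535101-66535220 (plus strand): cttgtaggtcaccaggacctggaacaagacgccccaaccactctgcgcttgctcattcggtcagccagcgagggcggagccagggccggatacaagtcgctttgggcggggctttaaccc
Pttg1, chr11:43425982-43426101 (minus strand): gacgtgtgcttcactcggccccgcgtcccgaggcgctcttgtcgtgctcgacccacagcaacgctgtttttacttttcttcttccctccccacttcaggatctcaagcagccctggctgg

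In Cdk1, Cdc20, Kif22 and Kif11 a TTTGAA match lies just before the start with a CCAAT box farther upstream, and Ccnb1 has the TTTAAA variant below a pair of CCAAT boxes. Other genes counted above had TTTGAA only after the start, among them Bub1b, Aurka, Plk1 and Ndc80 (positions 41, 33, 31 and 30). The 30 genes with TTTGAA had a median log2 change of -0.58 with YAP/TAZ siRNA without heat, and the 9 without it had -0.64. Those 9 are not all without a CHR, since Cenpe, Birc5 and Ccnb1 held the TTTAAA variant. Mad2l1 and Pttg1, whose windows may miss the promoters, are also among them. With heat under control siRNA the medians were -0.39 and -0.56, and for the interaction both were 0.53. With heat under YAP/TAZ siRNA they were 0.12 with TTTGAA and -0.022 without it, and with YAP/TAZ siRNA after heat -0.051 and 0.11; none of these differences was tested.

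Counts by role below stand beside 21.9% of all tested genes called lower with YAP/TAZ siRNA without heat. With heat under control siRNA 36.9% were called lower, and for the interaction 24.6% were called higher. The first role is that of CDK1, the kinase that starts mitosis, and its cyclins. All 4 genes fell with YAP/TAZ siRNA without heat, while heat in control siRNA cells lowered Cdk1 and Ccnb1 and left Ccna2 and Ccnb2 uncalled. Cdk1 was at 39.5, 36.9 and 39.0 FPKM under control siRNA without heat, 17.9 and 20.5 with heat, 21.0, 25.1 and 24.5 under YAP/TAZ siRNA without heat and 29.1, 25.3 and 23.9 with heat. Heated control siRNA libraries were the lowest and did not overlap any other group. Its heat change with control siRNA was -0.97 ± 0.10, adjusted p = 4.7e-05, that with YAP/TAZ siRNA was 0.14 ± 0.090, adjusted p = 0.216, and the interaction was 1.11 ± 0.13, adjusted p = 3.1e-04. Cdk1 was higher under YAP/TAZ siRNA after heat (0.42 ± 0.10, adjusted p = 0.00593), a call that ended without heated control replicate 1 (0.33).

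Ccnb1, which encodes the main mitotic cyclin, was at 35.7, 34.7 and 35.9 FPKM under control siRNA without heat, 15.2 and 15.8 with heat, 21.7, 21.8 and 21.3 under YAP/TAZ siRNA without heat and 17.9, 17.3 and 18.9 with heat. Its groups did not overlap: unheated control siRNA libraries were highest and heated ones lowest. It fell with heat under both siRNAs, by 1.14 ± 0.047 (adjusted p = 2.7e-07) under control siRNA and by 0.25 ± 0.042 (adjusted p = 0.00119) under YAP/TAZ siRNA, and the interaction was 0.90 ± 0.062, adjusted p = 1.8e-05. Because the processed pseudogene Ccnb1-ps on chromosome 7 was listed at 11.1 to 32.0 FPKM, reads of the 2 cannot be told apart with certainty. Their summed FPKM, at 67.6, 66.8 and 61.4 without heat and 27.4 and 26.9 with heat under control siRNA, and at 40.7, 38.3 and 38.7 and then 33.4, 32.9 and 33.1 under YAP/TAZ siRNA, kept the same order of groups.

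Ccnb2, which encodes a close relative of cyclin B1, was at 58.5, 59.9 and 62.1 FPKM under control siRNA without heat, 56.0 and 61.3 with heat, 37.2, 37.7 and 42.4 under YAP/TAZ siRNA without heat and 45.3, 42.6 and 49.9 with heat. Under control siRNA the heated and unheated libraries overlapped, and the heat change of -0.038 ± 0.079 had a 95% interval of -0.22 to 0.14. It fell with YAP/TAZ siRNA without heat (-0.61 ± 0.071, adjusted p = 9.3e-05), and its interaction was not called (0.26 ± 0.11, adjusted p = 0.079). Ccna2, the cyclin that acts in S and G2 phase, fell with YAP/TAZ siRNA without heat (-0.65 ± 0.10), and its heat value under control siRNA was -0.16 ± 0.12 (not called), with 37.1 and 52.4 FPKM in the 2 heated control siRNA libraries.

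Plk1 and Aurka, the Polo-like and Aurora A kinases that build and orient the spindle, both fell with YAP/TAZ siRNA without heat, and with heat under control siRNA Plk1 fell and Aurka was not called. Plk1 was at 87.2, 84.6 and 89.6 FPKM under control siRNA without heat, 42.2 and 43.8 with heat, 54.0, 51.1 and 52.3 under YAP/TAZ siRNA without heat and 54.6, 49.4 and 56.0 with heat. Both heated control siRNA libraries were under every other library. With heat under control siRNA it fell (-1.003 ± 0.058, adjusted p = 1.7e-06), was at 0.021 ± 0.052 with heat under YAP/TAZ siRNA (not called, 95% interval of -0.096 to 0.14), and had an interaction of 1.02 ± 0.078, adjusted p = 2.7e-05. Aurka was at 52.5, 52.3 and 55.8 FPKM under control siRNA without heat, 50.0 and 49.3 with heat, 27.2, 27.7 and 28.9 under YAP/TAZ siRNA without heat and 36.9, 34.1 and 35.4 with heat. Both heated control siRNA libraries lay just below every unheated one, with a heat change of -0.11 ± 0.050 (not called). Aurka rose with heat under YAP/TAZ siRNA (0.33 ± 0.045, adjusted p = 3.9e-04). YAP/TAZ siRNA lowered it both without heat (-0.91 ± 0.045, adjusted p = 6.7e-07) and after heat (-0.47 ± 0.050, adjusted p = 5.5e-05).

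The chromosomal passenger complex, in which Aurora B (Aurkb) with INCENP, survivin (Birc5) and borealin (Cdca8) corrects faulty chromosome attachments, had 4 of 4 genes lower with YAP/TAZ siRNA without heat, and all 4 interactions were called higher. Incenp, the scaffold, was at 39.4, 37.2 and 36.8 FPKM under control siRNA without heat, 18.9 and 19.5 with heat, 25.2, 24.6 and 24.3 under YAP/TAZ siRNA without heat and 26.2, 27.4 and 28.3 with heat. No 2 of its groups overlapped, and the heated control siRNA libraries were lowest. Heat under control siRNA lowered it (-0.94 ± 0.049, adjusted p = 8.7e-07), and its interaction was 1.08 ± 0.066, adjusted p = 1.1e-05. After heat it was higher under YAP/TAZ siRNA (0.49 ± 0.049, adjusted p = 4.1e-05).

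Birc5 was at 38.7, 38.1 and 40.9 FPKM under control siRNA without heat, 30.1 and 33.6 with heat, 25.0, 23.4 and 26.3 under YAP/TAZ siRNA without heat and 35.4, 31.1 and 38.5 with heat. It rose with heat under YAP/TAZ siRNA (0.47 ± 0.081, adjusted p = 0.00133), to levels that overlapped those of heated control siRNA cells. Under control siRNA it fell (-0.29 ± 0.090, adjusted p = 0.0226), a call that ended without heated control replicate 1 (-0.22) or unheated control replicate 3 (-0.26). Cdca8 was at 15.5, 15.3 and 16.6 FPKM under control siRNA without heat, 13.3 and 14.5 with heat, 9.95, 10.1 and 10.7 under YAP/TAZ siRNA without heat and 15.2, 14.7 and 16.0 with heat. It rose with heat under YAP/TAZ siRNA (0.54 ± 0.055, adjusted p = 9.6e-05), one of the 4 lowest p-values of the set there. Its value with heat under control siRNA was -0.17 ± 0.062, at the edge of the threshold (adjusted p = 0.0454), and turned to 0.027 after median-of-ratios scaling. It was also not called without heated control replicate 1 (-0.11), any unheated control replicate (-0.13 to -0.19), unheated YAP/TAZ siRNA replicate 1 or 2 or heated YAP/TAZ siRNA replicate 1 (-0.17). Aurkb fell with heat under control siRNA (-0.61 ± 0.050) and had an interaction of 0.64 ± 0.067.

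All 5 genes of the spindle checkpoint, which delays anaphase until kinetochores are attached, fell with YAP/TAZ siRNA without heat, 4 of 5 fell with heat under control siRNA, and all 5 interactions were called higher. Ttk, the MPS1 kinase that starts checkpoint signalling, was the least expressed member of the group, at 6.41, 6.28 and 6.04 FPKM under control siRNA without heat, 2.44 and 2.72 with heat, 3.77, 4.20 and 3.81 under YAP/TAZ siRNA without heat and 4.61, 4.21 and 4.26 with heat. Both heated control siRNA libraries were the lowest. Ttk had the largest interaction of the 46 genes, 1.14 ± 0.089, adjusted p = 3.0e-05, with -1.02 ± 0.066 under control siRNA against 0.12 ± 0.059 (not called) under YAP/TAZ siRNA, and it was higher under YAP/TAZ siRNA after heat (0.58 ± 0.066, adjusted p = 8.6e-05).

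Mad2l1, whose product MAD2 binds CDC20, was at 22.5, 23.3 and 23.4 FPKM under control siRNA without heat, 10.5 and 10.4 with heat, 13.3, 14.3 and 13.8 under YAP/TAZ siRNA without heat and 11.8, 10.9 and 11.3 with heat. It fell with heat under both siRNAs, with changes of -1.07 ± 0.050 and -0.26 ± 0.045 (adjusted p = 0.00131) respectively, so that all 5 heated libraries lay between 10.4 and 11.8 FPKM. Bub1, the kinase that marks centromeres for the passenger complex, was at 38.6, 42.8 and 39.8 FPKM under control siRNA without heat, 37.1 and 40.1 with heat, 21.8, 24.9 and 24.4 under YAP/TAZ siRNA without heat and 31.5, 32.5 and 27.4 with heat. Its heat change under control siRNA was -0.063 ± 0.087 (not called), and it rose with heat under YAP/TAZ siRNA (0.35 ± 0.078, adjusted p = 0.00513). Its interaction (0.41 ± 0.12, adjusted p = 0.0213) was no longer called without heated control replicate 1 (0.36). Bub1b, which encodes BUBR1, fell with heat under control siRNA (-0.85 ± 0.063). Bub3, which also works outside mitosis, moved least with YAP/TAZ siRNA without heat (-0.19 ± 0.071, adjusted p = 0.0483), and that call ended under 11 of the 18 alternatives, among them leaving out any 1 unheated library (-0.13 to -0.22).

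Anaphase begins when CDC20 activates the anaphase-promoting complex, securin (Pttg1) is destroyed and separase (Espl1) cuts cohesin. With YAP/TAZ siRNA without heat Cdc20 and Espl1 fell and Pttg1 rose. Cdc20 was at 84.7, 79.5 and 83.8 FPKM under control siRNA without heat, 63.5 and 62.7 with heat, 50.4, 45.7 and 49.9 under YAP/TAZ siRNA without heat and 53.6, 54.4 and 59.7 with heat. It fell with YAP/TAZ siRNA without heat (-0.75 ± 0.055, adjusted p = 5.7e-06) and with heat under control siRNA (-0.38 ± 0.062, adjusted p = 7.2e-04), and its interaction was 0.58 ± 0.083, adjusted p = 7.5e-04. Espl1 was at 12.6, 13.3 and 11.8 FPKM under control siRNA without heat, 7.20 and 7.32 with heat, 8.21, 8.04 and 7.37 under YAP/TAZ siRNA without heat and 6.91, 6.71 and 7.08 with heat. It fell with heat under control siRNA (-0.71 ± 0.063, adjusted p = 1.9e-05) and with YAP/TAZ siRNA without heat (-0.61 ± 0.057). The smaller heat change under YAP/TAZ siRNA (-0.17 ± 0.057, adjusted p = 0.035) was no longer called in 9 of 18 alternatives, among them leaving out any heated YAP/TAZ siRNA replicate, unheated YAP/TAZ siRNA replicate 1 or 2 or unheated control replicate 1 (-0.14 to -0.18).

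Pttg1 was the exception of the set. It was at 5.39, 5.32 and 7.34 FPKM under control siRNA without heat, 3.57 and 3.89 with heat, 9.12, 8.48 and 10.2 under YAP/TAZ siRNA without heat and 8.24, 7.08 and 9.12 with heat. Every YAP/TAZ siRNA library without heat was above every control siRNA library, and it rose with the siRNA pool both without heat (0.56 ± 0.12, adjusted p = 0.00447) and after heat (0.95 ± 0.14, adjusted p = 3.9e-04). Its values and the mean of the other 45 genes had a Pearson r of -0.398 over the 11 libraries, while every other gene of the set had a positive r, the next lowest being Smc4 at 0.241. The fall with heat under control siRNA (-0.56 ± 0.14, adjusted p = 0.00825) ended without heated control replicate 1 (-0.51), and the interaction was not called (0.39 ± 0.19).

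Kinetochores join chromosomes to the spindle. The NDC80 complex (Ndc80, Nuf2, Spc24 and Spc25) holds microtubule ends, CENP-A (Cenpa) marks centromeric chromatin, and CENP-E and CENP-F (Cenpe, Cenpf) act at its outer face. All 7 fell with YAP/TAZ siRNA without heat. With heat under control siRNA 3 fell and 4 were not called, where 36.9% of all tested genes were called lower. Nuf2 was at 10.99, 11.7 and 11.2 FPKM under control siRNA without heat, 4.98 and 5.12 with heat, 7.17, 8.26 and 7.80 under YAP/TAZ siRNA without heat and 7.98, 6.98 and 7.88 with heat. Heat under control siRNA lowered it (-1.02 ± 0.072, adjusted p = 4.7e-06) to under every other library, and its interaction was 1.00 ± 0.096, adjusted p = 9.0e-05. Ndc80, the direct partner of NUF2 in the same complex, was at 21.9, 23.6 and 23.8 FPKM under control siRNA without heat, 20.0 and 21.2 with heat, 14.3, 16.2 and 16.4 under YAP/TAZ siRNA without heat and 25.1, 24.4 and 26.2 with heat. It was at -0.16 ± 0.067 with heat under control siRNA (not called) and rose with heat under YAP/TAZ siRNA (0.66 ± 0.060, adjusted p = 5.3e-05), the largest rise of the set there. All 3 heated YAP/TAZ siRNA libraries exceeded all 3 unheated control siRNA libraries. Its higher value under YAP/TAZ siRNA after heat (0.28 ± 0.067) was not called without heated control replicate 1 (0.24).

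Spc24 was at 7.68, 6.84 and 6.43 FPKM under control siRNA without heat, 5.21 and 5.65 with heat, 5.64, 5.23 and 5.83 under YAP/TAZ siRNA without heat and 7.47, 6.25 and 8.45 with heat. At these low levels its calls were weak: the fall with YAP/TAZ siRNA without heat (-0.28 ± 0.098, adjusted p = 0.04) ended in 9 alternatives, among them leaving out any 1 of 8 libraries, unheated control replicates 1 and 2 and all unheated YAP/TAZ siRNA replicates included (-0.22 to -0.31). Spc25 rose with heat under YAP/TAZ siRNA (0.36 ± 0.058). Cenpe and Cenpf showed no heat response that could be called under either siRNA. Cenpe changed by too little to call, -0.0020 ± 0.083 with the control and 0.066 ± 0.074 with YAP/TAZ siRNA, and its interaction of 0.068 ± 0.11 had a 95% interval of -0.18 to 0.32. For Cenpf the interaction was -0.017 ± 0.15 (95% interval of -0.35 to 0.32). Both were lower under YAP/TAZ siRNA without heat (Cenpe -0.72 ± 0.074, Cenpf -0.46 ± 0.098) and after heat (Cenpe -0.65 ± 0.083, Cenpf -0.47 ± 0.11).

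The 8 mitotic kinesins, motors that slide, depolymerise or cross-link microtubules, all fell with YAP/TAZ siRNA without heat, and 7 of 8 fell with heat under control siRNA. Kif20b, a kinesin of late mitosis and cytokinesis, was at 16.2, 17.8 and 15.6 FPKM under control siRNA without heat, 6.22 and 5.37 with heat, 10.9, 11.7 and 10.6 under YAP/TAZ siRNA without heat and 6.05, 5.63 and 5.14 with heat. All 5 heated libraries were under all 6 unheated ones. Kif20b had the deepest fall with heat of the set under both siRNAs, at -1.37 ± 0.086, adjusted p = 2.5e-06 with the control and -0.87 ± 0.077, adjusted p = 4.4e-05 with YAP/TAZ siRNA, and after heat the siRNAs were at -0.040 ± 0.086 from each other (not called, 95% interval of -0.23 to 0.15). Kif2c, the microtubule depolymerase MCAK, was at 17.9, 18.3 and 19.6 FPKM under control siRNA without heat, 7.04 and 8.11 with heat, 11.5, 11.4 and 12.1 under YAP/TAZ siRNA without heat and 9.35, 8.29 and 9.43 with heat. It too fell with heat under both siRNAs, at -1.19 ± 0.075 and -0.34 ± 0.067.

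Kif22, a chromosome arm motor, was at 17.4, 16.7 and 19.4 FPKM under control siRNA without heat, 7.35 and 7.95 with heat, 11.3, 11.8 and 12.7 under YAP/TAZ siRNA without heat and 11.4, 9.70 and 11.3 with heat. Its heated control siRNA libraries were lowest, with a fall of 1.12 ± 0.088 (adjusted p = 8.5e-06), and the heat value under YAP/TAZ siRNA was -0.13 ± 0.079 (not called). The interaction was 0.99 ± 0.12, adjusted p = 2.8e-04. Kif4, the chromokinesin that works with PRC1 and condensin, was at 19.4, 20.3 and 19.9 FPKM under control siRNA without heat, 9.73 and 10.6 with heat, 11.9, 13.3 and 11.9 under YAP/TAZ siRNA without heat and 12.2, 11.03 and 11.5 with heat. With heat under control siRNA it fell (-0.90 ± 0.066), and its interaction was 0.82 ± 0.088. The end of Kif4 overlaps Pdzd11 on the opposite strand by 832 bases, and the counting is not stated to use strand. Its higher value under YAP/TAZ siRNA after heat (0.18 ± 0.066, adjusted p = 0.045) was lost in 13 of 18 alternatives, among them leaving out any 1 of 8 libraries (0.12 to 0.23).

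Kif11, the Eg5 motor that separates spindle poles, was at 42.8, 45.4 and 40.5 FPKM under control siRNA without heat, 31.9 and 33.1 with heat, 28.6, 32.3 and 29.0 under YAP/TAZ siRNA without heat and 29.5, 31.9 and 28.1 with heat. It fell with YAP/TAZ siRNA without heat (-0.50 ± 0.066) and with heat under control siRNA (-0.39 ± 0.074, adjusted p = 0.00201). Its interaction (0.38 ± 0.099, adjusted p = 0.0147) was not called without heated control replicate 1 (0.36). Kif20a, the cleavage furrow kinesin MKLP2, was at 48.5, 47.9 and 49.0 FPKM under control siRNA without heat, 30.9 and 30.8 with heat, 25.6, 25.8 and 25.0 under YAP/TAZ siRNA without heat and 25.3, 27.7 and 26.0 with heat. YAP/TAZ siRNA lowered it without heat (-0.90 ± 0.041, adjusted p = 3.9e-07) to a level that heat did not change measurably (0.044 ± 0.041, 95% interval of -0.048 to 0.14). Kif20a overlaps Cdc23 on the opposite strand by 2327 bases. Kif18b, a plus-end depolymerase, was at 20.8, 20.2 and 18.6 FPKM under control siRNA without heat, 21.0 and 19.6 with heat, 12.5, 11.8 and 11.7 under YAP/TAZ siRNA without heat and 13.4, 12.1 and 13.5 with heat. Heat moved it under neither siRNA beyond the threshold, and it was lower under YAP/TAZ siRNA without heat (-0.68 ± 0.060) and after heat (-0.60 ± 0.067, adjusted p = 7.4e-05).

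**Figure D3:**
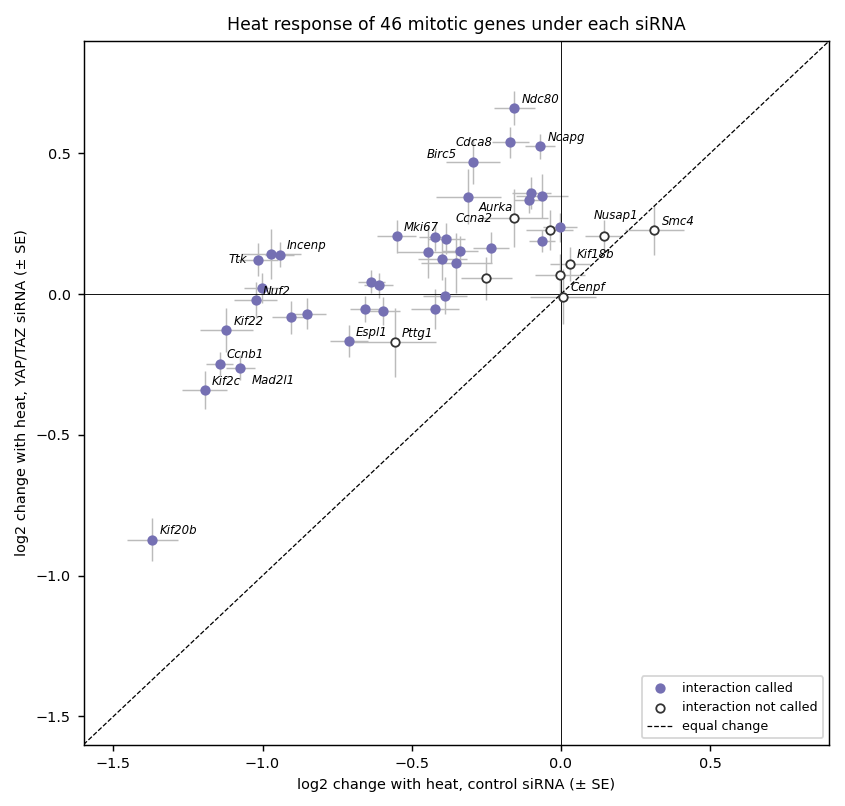
Log2 change with heat under control siRNA (x axis) against that under YAP/TAZ siRNA (y axis) for the 46 genes, with bars of 1 standard error and a dashed line of equal change. The 37 genes with a called interaction (filled) all lie above the line, from Kif20b at -1.37 and -0.87 to Ndc80 at -0.16 and 0.66.

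Of the 3 genes of spindle assembly and bundling, 1 fell with heat under control siRNA, where 36.9% of all tested genes were called lower. All 3 fell with YAP/TAZ siRNA without heat. Tpx2, which activates Aurora A on microtubules, was at 51.8, 55.8 and 52.2 FPKM under control siRNA without heat, 39.2 and 39.8 with heat, 32.2, 33.2 and 32.6 under YAP/TAZ siRNA without heat and 39.0, 35.3 and 39.0 with heat. It fell with heat under control siRNA (-0.42 ± 0.055, adjusted p = 2.0e-04) and with YAP/TAZ siRNA without heat (-0.69 ± 0.049), and the interaction was 0.62 ± 0.074, adjusted p = 2.7e-04. Prc1, the cross-linker of the central spindle, and Nusap1, a microtubule bundler, were at -0.0034 ± 0.057 and 0.15 ± 0.064 with heat under control siRNA, neither called. Both fell with YAP/TAZ siRNA without heat, Prc1 by 0.58 ± 0.051 and Nusap1 by 0.27 ± 0.057, the latter among the smallest falls of the set.

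At the cleavage furrow, anillin (Anln) links the contractile ring to the membrane, and RACGAP1 and ECT2 control RhoA there. Anln was at 35.5, 36.0 and 32.8 FPKM under control siRNA without heat, 25.9 and 26.3 with heat, 17.3, 17.4 and 15.2 under YAP/TAZ siRNA without heat and 18.6, 19.6 and 16.5 with heat. It had the deepest fall of the set with YAP/TAZ siRNA without heat (-1.02 ± 0.073, adjusted p = 5.2e-06) and stayed lower after heat (-0.50 ± 0.082, adjusted p = 7.7e-04). No YAP/TAZ siRNA library, heated or not, reached the lowest control siRNA library. Racgap1 was at 36.8, 35.8 and 37.2 FPKM under control siRNA without heat, 34.5 and 35.5 with heat, 24.9, 24.4 and 23.2 under YAP/TAZ siRNA without heat and 27.5, 27.9 and 27.6 with heat. It fell with YAP/TAZ siRNA without heat (-0.58 ± 0.039, adjusted p = 3.5e-06), was at -0.062 ± 0.043 with heat under control siRNA (not called), and stayed lower under YAP/TAZ siRNA after heat (-0.33 ± 0.043, adjusted p = 2.1e-04). Ect2 was at -0.69 ± 0.093 with YAP/TAZ siRNA without heat, a fall, and its interaction was 0.60 ± 0.14.

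Condensin and the chromosome proteins topoisomerase IIα (Top2a) and Ki-67 (Mki67) form the last role. Of these 7 genes, 6 fell with YAP/TAZ siRNA without heat, and with heat under control siRNA 5 fell, 1 rose and 1 was not called. Among condensin I subunits Ncapd2 and Ncaph fell with heat under control siRNA, and Ncapg was not called. Ncapd2 was at 59.8, 56.9 and 57.6 FPKM under control siRNA without heat, 35.0 and 38.0 with heat, 41.8, 40.7 and 38.7 under YAP/TAZ siRNA without heat and 38.5, 39.4 and 38.7 with heat. With heat under control siRNA it fell (-0.66 ± 0.051, adjusted p = 8.0e-06) to under every other library, and its interaction was 0.60 ± 0.068, adjusted p = 2.1e-04. Ncapg was at 18.6, 20.2 and 19.8 FPKM under control siRNA without heat, 18.1 and 19.0 with heat, 12.3, 13.0 and 12.8 under YAP/TAZ siRNA without heat and 18.9, 18.9 and 18.2 with heat. It was at -0.070 ± 0.050 with heat under control siRNA (not called) and rose with heat under YAP/TAZ siRNA (0.52 ± 0.045, adjusted p = 3.9e-05). Ncaph, the kleisin subunit that binds both, fell with heat under control siRNA (-0.60 ± 0.055).

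Smc4, one of the 2 ATPase subunits, was the only gene of the set called higher with heat in control cells. Smc4 was at 26.4, 27.6 and 26.4 FPKM under control siRNA without heat, 29.7 and 37.9 with heat, 20.4, 24.2 and 23.5 under YAP/TAZ siRNA without heat and 26.7, 27.4 and 25.9 with heat. The rise (0.31 ± 0.099, adjusted p = 0.0261) rested on heated control replicate 3, the highest library, and without it the change was 0.14 and not called; it was not called either without unheated control replicate 1 (0.30) or 3 (0.30). Its partner Smc2 fell with YAP/TAZ siRNA without heat (-0.63 ± 0.077), where Smc4 was at -0.23 ± 0.089 (adjusted p = 0.0535).

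Top2a was at 65.8, 68.7 and 64.3 FPKM under control siRNA without heat, 53.2 and 59.4 with heat, 45.8, 49.0 and 45.6 under YAP/TAZ siRNA without heat and 53.0, 54.3 and 50.4 with heat. It fell with YAP/TAZ siRNA without heat (-0.49 ± 0.054, adjusted p = 6.7e-05), and the smaller fall with heat under control siRNA (-0.23 ± 0.061, adjusted p = 0.0105) was not called without heated control replicate 1 (-0.16). Mki67, the proliferation marker, was at 45.9, 46.7 and 40.4 FPKM under control siRNA without heat, 29.0 and 30.8 with heat, 30.7, 30.9 and 30.6 under YAP/TAZ siRNA without heat and 36.8, 35.3 and 34.6 with heat. Heat under control siRNA lowered it (-0.55 ± 0.064, adjusted p = 9.9e-05), and its interaction was 0.76 ± 0.086, adjusted p = 2.2e-04. Its higher value under YAP/TAZ siRNA after heat (0.24 ± 0.064) was not called without heated control replicate 1 (0.20).

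Lists of other genes by function were described in the same way. Of 59 further mitotic genes, 45 fell and 0 rose with YAP/TAZ siRNA without heat (median log2 change -0.49), and 33 fell and 1 rose with heat under control siRNA (-0.32). With heat under YAP/TAZ siRNA 25 rose and 11 fell (0.17), and 38 interactions were called higher and 2 lower (0.52). Of all tested genes, 21.9% were called lower and 27.1% higher with YAP/TAZ siRNA without heat. With heat, 36.9% were lower and 12.4% higher under control siRNA, and 31.7% lower and 18.6% higher under YAP/TAZ siRNA. For the interaction 24.6% were higher and 13.4% lower. Among them Troap, a spindle-associated protein gene, was at -1.18 ± 0.069 with heat under control siRNA, and Dlgap5, a spindle assembly factor, was at -0.90 ± 0.057 with an interaction of 0.80 ± 0.077. Ube2c, the ubiquitin-conjugating enzyme of the anaphase-promoting complex, was at -0.83 ± 0.053 with YAP/TAZ siRNA without heat. The 2 genes with a lower interaction were Ccnf, which encodes cyclin F (-0.82 ± 0.12, adjusted p = 8.1e-04), and Gtse1, a G2 and S phase regulator of p53, with an interaction of -1.13 ± 0.094, adjusted p = 4.0e-05 and a change of -2.17 ± 0.070 with YAP/TAZ siRNA after heat.

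Lists of complexes that act in mitosis but are present throughout the cell cycle were counted as well. Of 14 subunits of the anaphase-promoting complex, 4 fell and 1 rose with YAP/TAZ siRNA without heat (median -0.04). Of 12 condensin II and cohesin genes, 4 fell and 0 rose (median -0.11), against the median of -0.59 for the mitotic set and 0.02 for all tested genes, of which 21.9% were called lower and 27.1% higher. With heat under control siRNA 6 of the 14 fell and 1 rose (median -0.14), and 3 of the 12 fell and 0 rose (-0.13), where 36.9% of all tested genes were called lower and 12.4% higher. With heat under YAP/TAZ siRNA the medians were 0.04 and -0.17, and with YAP/TAZ siRNA after heat they were 0.15 and -0.09. The condensin II subunit gene Ncapd3 was at -0.90 ± 0.090, adjusted p = 3.8e-05 with heat under control siRNA, and the cohesin gene Smc1a was at -0.43 ± 0.037, adjusted p = 1.4e-05 with YAP/TAZ siRNA without heat. The difference between these lists and the mitotic set was not tested.

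**Figure D4:**
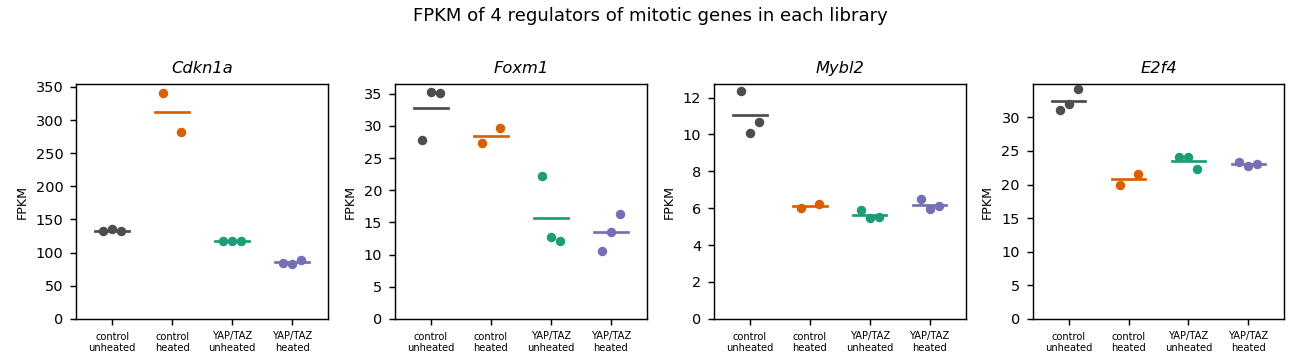
FPKM of 4 regulators of mitotic genes in each library (points) with the group mean (line). Cdkn1a is at 341 and 282 FPKM in heated control siRNA libraries and at most 135 FPKM in every other library, Foxm1 is lower under YAP/TAZ siRNA, and Mybl2 and E2f4 are highest in unheated control siRNA libraries.

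Of 17 regulators of mitotic transcription, 6 fell and 0 rose with YAP/TAZ siRNA without heat, where 21.9% of all tested genes were called lower and 27.1% higher. With heat under control siRNA 5 fell and 1 rose, where 36.9% of all tested genes were called lower and 12.4% higher. The gene that rose was Cdkn1a, which encodes the CDK inhibitor p21. It was at 132, 135 and 132 FPKM under control siRNA without heat, 341 and 282 with heat, 117, 117 and 117 under YAP/TAZ siRNA without heat and 84.5, 82.8 and 89.4 with heat. Both heated control siRNA libraries were above all others: Cdkn1a rose with heat under control siRNA (1.21 ± 0.072, adjusted p = 1.9e-06) and fell with heat under YAP/TAZ siRNA (-0.45 ± 0.064, adjusted p = 5.3e-04), with an interaction of -1.66 ± 0.096, adjusted p = 8.8e-06 and a change of -1.85 ± 0.072 with YAP/TAZ siRNA after heat.

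Mybl2, which encodes B-MYB, the activator that joins MuvB at mitotic promoters, was at 12.4, 10.1 and 10.7 FPKM under control siRNA without heat, 5.99 and 6.24 with heat, 5.90, 5.47 and 5.55 under YAP/TAZ siRNA without heat and 6.52, 5.95 and 6.11 with heat. It fell with heat under control siRNA (-0.75 ± 0.081, adjusted p = 6.0e-05) and with YAP/TAZ siRNA without heat (-0.85 ± 0.072, adjusted p = 1.4e-05), and its interaction was 0.87 ± 0.11, adjusted p = 3.7e-04. E2f4, a DREAM subunit, was at 31.1, 32.0 and 34.2 FPKM under control siRNA without heat, 20.0 and 21.6 with heat, 24.1, 24.1 and 22.3 under YAP/TAZ siRNA without heat and 23.4, 22.8 and 23.1 with heat. It fell in the same comparisons (-0.62 ± 0.058 and -0.45 ± 0.052). Foxm1, the forkhead activator of mitotic genes, was named after its values were seen; it was at 27.8, 35.2 and 35.1 FPKM under control siRNA without heat, 27.3 and 29.7 with heat, 22.2, 12.7 and 12.1 under YAP/TAZ siRNA without heat and 10.6, 13.5 and 16.3 with heat. It fell with YAP/TAZ siRNA without heat (-1.06 ± 0.22, adjusted p = 0.00341) and was lower after heat (-1.04 ± 0.25, adjusted p = 0.00604), with a wide spread between replicates and no call for heat or the interaction (0.013 ± 0.33).

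Outside the mitotic genes and these lists, the 5 tested genes whose log2 values followed the mean standardised profile of the 46 most closely over the 11 libraries were G3bp1 (Pearson r = 0.993), Nop2 (0.990), Ak4 (0.989), Mcm3 (0.987) and Rfc5 (0.987). G3bp1, a stress granule protein gene, had group means of 59.9 and 40.5 FPKM without and with heat under control siRNA, and of 37.1 and 40.5 FPKM under YAP/TAZ siRNA. Mcm3, a subunit of the replicative helicase, had 99.0 and 66.3, and 61.2 and 68.4 FPKM. These are descriptions over libraries that share 4 group means, with the likeness chosen from all tested genes.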

How the data were processed

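RNA of 11 libraries was sequenced and summarised by the authors as 1 deposited table of FPKM per gene. Read trimming tool Trimmomatic 0.36, then HISAT2, StringTie, SAMtools and DESeq2, with the build GRCm38, are named per the submitters' processing notes. No source used here gives counts, the strand setting or the annotation version. Low values of each library are multiples of a step; whether 1 step is a fragment or a single mate is not given, so no count test was run.

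From the FPKM values log2(FPKM + 1) was computed, genes that reached 1 FPKM in 2 or more libraries were kept, and limma 3.58.1 (R 4.3.3) fitted 4 group means to all 11 libraries with a trended prior (7 residual degrees of freedom). The 5 comparisons were tested 2-sided with Benjamini-Hochberg adjustment over 12626 genes, and an adjusted p under 0.05 was called. The ± values are standard errors. The procedure was tested on simulated data with 200 changed genes among 12626. In the real data 37.9 to 54.3% of tested genes were called, and the adjusted threshold is less strict where more genes change. Recovery in the simulation thus need not hold for the real data or for these 46 genes. At a log2 change of 0.5 the procedure recovered 25.0% of simulated interactions and 49.0 to 64.0% of changes in the other comparisons. At 1.0 it recovered 73.0% and 88.0 to 90.5%, and false calls were at most 7.37% of calls. An uncalled interaction can thus be a missed one. The gene set and lists were chosen with earlier results of these data known. Genes with values by library are, per role, those with the lowest interaction p and the highest mean, plus the 4 lowest p-values of each comparison and calls against the majority's direction in it; from other lists up to 3 genes by p were named. There were 18 alternatives: another pseudocount, filters, scalings, a replicate block and leaving out each library. Gene models that overlap an expressed neighbour (Kif4, Kif20a, Cdc20, Nusap1, Ccna2, Cdca8, Ncapg and Prc1) may share its reads.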

Additional observations from a re-analysis of the deposited data

Results flagged for a closer look

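For 37 of the 46 genes the heat response under YAP/TAZ siRNA differed from that under control siRNA by the test of the difference itself (limma's interaction term, adjusted p under 0.05), and in each the value under YAP/TAZ siRNA was the higher. For CDK1 and its cyclins the log2 difference was 1.11 for Cdk1 and 0.896 for Ccnb1. It was 0.439 for Aurka and 1.02 for Plk1 for Aurora A and Polo-like kinase. For chromosomal passenger complex the log2 difference was 0.642 for Aurkb, 1.08 for Incenp, 0.764 for Birc5 and 0.71 for Cdca8. It was 0.411 for Bub1, 0.781 for Bub1b, 0.369 for Bub3, 0.813 for Mad2l1 and 1.14 for Ttk for spindle checkpoint. For anaphase onset the log2 difference was 0.581 for Cdc20 and 0.545 for Espl1. It was 0.46 for Cenpa, 0.816 for Ndc80, 1.0 for Nuf2, 0.656 for Spc24 and 0.459 for Spc25 for kinetochore. For kinesins the log2 difference was 0.852 for Kif2c, 0.821 for Kif4, 0.383 for Kif11, 0.68 for Kif20a, 0.497 for Kif20b, 0.992 for Kif22 and 0.492 for Kif23. It was 0.623 for Tpx2 and 0.24 for Prc1 for spindle assembly and bundling. For cleavage furrow the log2 difference was 0.521 for Anln, 0.596 for Ect2 and 0.251 for Racgap1. It was 0.604 for Ncapd2, 0.595 for Ncapg, 0.534 for Ncaph, 0.398 for Top2a and 0.755 for Mki67 for condensin and chromosome structure. Those of Bub1, Bub3, Cenpa, Kif11, Prc1, Racgap1 and Top2a were not called under at least 1 other scaling of the libraries.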

How the results depend on the processing

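Of the calls in the 46 genes, 43 of 45 with YAP/TAZ siRNA without heat, 30 of 37 interactions, 19 of 33 with heat under control siRNA, 10 of 23 with heat under YAP/TAZ siRNA and 13 of 27 with YAP/TAZ siRNA after heat held in all 18 alternatives. Under heat with control siRNA, genes called higher numbered 0 with 1 FPKM total, 6 with median-of-ratios and 2 with quantile scaling. Of all tested genes, 1318, 2809 and 2337 were called higher under these scalings in that order. Leaving out a library gave 0 to 1 of the set. With median-of-ratios 19 of the set were lower, against 2744 of all tested genes. Medians of the set were -0.47, -0.19 and -0.29 under the 3 scalings in the same order. Under heat with YAP/TAZ siRNA, 6 were higher and 14 lower with 1 FPKM total, against 1417 and 5794 of all tested genes. Medians of the set were -0.027 there, 0.20 with median-of-ratios and 0.088 to 0.15 leaving out a library. Interaction medians were 0.48, 0.45 and 0.45 under the scalings, 0.59 with a pseudocount of 0.1 and 0.52 to 0.60 leaving out a library. For YAP/TAZ siRNA without heat the median was -0.63 with median-of-ratios and -0.62 with a pseudocount of 0.1. After heat, 6 and 7 genes were higher with median-of-ratios and quantile scaling, against 3157 and 3707 of all tested genes. Leaving out a library gave 8 to 15 higher and 8 to 14 lower. Medians of the set were -0.093, -0.16 and -0.11 under the scalings and -0.032 to 0.022 leaving out a library. Scaling also turned Cdca8 (0.027) and Ube2c (0.027) with heat under control siRNA, Incenp with heat under YAP/TAZ siRNA (-0.020 with 1 FPKM total) and Smc3 with YAP/TAZ siRNA after heat (-0.031 and -0.0026). Median-of-ratios moved the median of all genes from -0.16 to 0.0058 with heat under control siRNA and from 0.13 to 0.0018 with YAP/TAZ siRNA after heat; why scalings differ was not tested.

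Deviations from the group means correlated weakly between libraries with the same replicate number (15 pairs, r of -0.11 to 0.134, 3 over 0.1). Those with different numbers gave 30 pairs, r of -0.18 to 0.155, 2 over 0.1. By mean r, 7 of 11 libraries correlated best with their own number. Groups of 2 and 3 libraries cannot decide whether the numbers pair them. With a replicate block, 1 gene was higher and 32 lower with heat under control siRNA, 19 and 5 with heat under YAP/TAZ siRNA, 38 and 0 for the interaction, 1 and 45 with YAP/TAZ siRNA without heat, and 15 and 16 after heat.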
